A study of Homo sapiens with 13 samples.

Results

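The CCR4-NOT and PAN2-PAN3 complexes shorten the poly(A) tails of cytoplasmic mRNAs, and 10 genes that encode their subunits were followed among the 14576 genes with 3’ ends in the data. The genes were taken by name: the scaffold CNOT1, the NOT module subunits CNOT2 and CNOT3, the CNOT10 subunit, the nucleases CNOT6, CNOT6L, CNOT7 and CNOT8, the nuclease PAN2 and its adaptor PAN3. Together they held 10180 reads in 9 libraries. In 3’ READS, sequencing starts at the poly(A) end of RNA fragments, so that each read gives the nucleotide at which an mRNA was cleaved and polyadenylated, and a read stands for 1 end whatever the length of the mRNA. It was applied to HEK293 Flp-in T-REx cells, a human embryonic kidney line, with an integrated pcDNA5 plasmid for an α-amanitin resistant (Amr) form of Rpb1, the largest subunit of RNA polymerase II (Pol II). The plasmid encoded wild-type Rpb1 (5 libraries) or Rpb1 with R749H, a change that slows elongation by Pol II (4 libraries). All 9 cultures were induced with doxycycline (2 µg/ml, 24 hr in the labels) and then treated with α-amanitin (2.5 µg/ml, 42 hr), which blocks the Pol II of the host cell. The titles name Avitag Rpb1 and the source names B10 Rpb1 for the same libraries. Each form of Rpb1 was carried by a single line, so the mutation and other differences between the lines cannot be told apart.

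The poly(A) tail protects an mRNA and binds the poly(A)-binding protein PABP. In the usual description, PAN2-PAN3 trims long tails first and CCR4-NOT removes the remainder, after which the mRNA is decapped and degraded from its 5’ end or degraded from its 3’ end. CCR4-NOT holds a nuclease of the EEP family (CNOT6 or CNOT6L) and a nuclease of the DEDD family (CNOT7 or CNOT8), and each pair are alternative subunits of the complex. RNA-binding proteins and the microRNA machinery bring the complex to chosen mRNAs. The study compared R749H with wild-type cells to learn how the speed of Pol II bears on where mRNAs end, and the levels of these mRNAs can be compared in the same libraries.

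The 9 libraries held 2479851 to 10135014 reads (wild-type) and 3863468 to 6475987 reads (R749H) within 5 kb downstream of a stop codon. R749H replicate 3 stood apart, with 41033 isoforms, of which 6.60% had a single read, against 73112 to 112834 isoforms and 30.05% to 36.2% in the other 8 libraries. Of 6 genes taken as markers of HEK293 cells, 3 (VIM, LIN28B and GATA3) had reads in every library, PAX2 did not, NEFM had at most 1 read in a library and NEFL was not listed. The summed level of the 6 was 120 to 187 RPM (reads scaled per 1000000) in wild-type and 104 to 142 RPM in R749H libraries, but single markers differed without overlap between the lines. VIM was lower in R749H cells (log2 change -0.66, adjusted p = 0.0194 by limma), LIN28B was higher (0.65, adjusted p = 0.0233), and PAX2, under the filter, had 1.28 to 4.08 RPM in wild-type and 0 to 0.87 RPM in R749H libraries. The part of these marker differences in the results was not tested. Of 7 markers of other cells, 3 were not listed, and the 7 summed to at most 4.38 RPM. POLR2A, the gene of Rpb1, had 60.5 to 124.5 RPM in wild-type and 253 to 520 RPM in R749H libraries. The 3’ end of the plasmid's transcript is not given in the sources used here, so this does not check the labels. Over all genes, 9495 passed the filter on low reads, and 2265 of these (23.9%) had an adjusted p under 0.05 with limma, 1037 higher (10.9%) and 1228 lower (12.9%) in R749H cells.

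The sites at which the mRNAs of the deadenylase genes end are shown first for the sites that the results turn on, because shares and positions are counted at sites, whereas a level counts all ends of a gene. A site joins major isoforms no more than 24 nt apart, and it is named by the distance in nt of its most used 3’ end from the stop codon. The sequences, read from GRCh37 (hg19), run 5’ to 3’ on the strand of the gene over the 30 nt from 35 to 6 nt before that end, and capitals mark AATAAA or ATTAAA, the poly(A) signals that were searched.

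CNOT2 +1077 (chr12:70748737-70748766, plus strand): ttcttctctttgtAATAAAgtagaaaagct
CNOT1 +1006 (chr16:58553862-58553891, minus strand): tgcatactgtagctaaccATTAAAgtcatg
CNOT10 +101 (chr3:32815169-32815198, plus strand): tcacagcagaatgAATAAAagatggtgaag
CNOT3 +273 (chr19:54659383-54659412, plus strand): ttttggaaaatatttatgAATAAAtagttt
CNOT6 +2619 (chr5:180003784-180003813, plus strand): taatccctaaaatgcAATAAAaactagtat
CNOT6 +3767 (chr5:180004932-180004961, plus strand): tactcatagccaaccAATAAAttcagtatc
CNOT6 +4152 (chr5:180005317-180005346, plus strand): gttgacatattttaAATAAAtgcttttaaa
CNOT6 +4204 (chr5:180005369-180005398, plus strand): gggttataataattcATTAAAtgtcttgtt
CNOT8 +1352 (chr5:154256316-154256345, plus strand): attttgtaaAATAAAgatttctttttaacc
PAN2 +672 (chr12:56710727-56710756, minus strand): taaaataaaAATAAAatatcgtttgttatt
PAN2 +2865 (chr12:56708534-56708563, minus strand): accttggtttaatagaaatgaagaaaacag
PAN3 +2810 (chr13:28869434-28869463, plus strand): tgtacagcagtatttttAATAAAgaattac

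The most used site of CNOT1, at +259, holds neither hexamer, and capitals mark in its window the hexamer AATACA, which was looked for only after this window had been seen.

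CNOT1 +259 (chr16:58554609-58554638, minus strand): aatatcattttgaacttgtgtaAATACAtg

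Of the most used sites of the 9 genes with a site, 8 hold AATAAA and the CNOT1 site does not. Among genes that averaged 20 reads or more in the libraries, the most used site held AATAAA in 7 of 8 deadenylase genes and in 67.0% of 7875 genes in all. Over all 15074 sites of such genes, AATAAA was in 56.1%, ATTAAA in 18.2%, either in 72.8% and AATACA in 3.12%, on the transcribed strand alone, and a window that holds both of the first 2 counts once for either. The PAN2 site at +2865 holds neither AATAAA nor ATTAAA. It lies downstream of the annotated PAN2 gene and within 2 annotated genes on the same strand, CNPY2 and ENSG00000144785. The CNOT6 site at +4204 lies past the annotated end of CNOT6, and the other CNOT6 sites lie in its 3’ UTR. The other sites shown lie in the annotated 3’ UTR of their gene. Both CNOT1 sites also overlap SETD6, the CNOT3 site overlaps LENG1 and both PAN2 sites overlap CNPY2-AS1, each on the opposite strand.

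CNOT2 mRNA was lower in R749H cells, and it was the only gene of the set whose level passed the test. CNOT2 (ENSG00000111596, chromosome 12, 70636782 to 70748773) encodes a subunit of the NOT module, which binds CNOT1 and contributes to the recruitment of target mRNAs. In wild-type libraries 1 to 5 its level was 119.6, 95.8, 83.0, 101.0 and 56.0 RPM, and in R749H libraries 1 to 4 it was 47.3, 57.5, 53.8 and 41.7 RPM. The groups overlapped, because wild-type replicate 5 lay below R749H replicate 2, and the other 4 wild-type libraries lay above every R749H library. The means were 91.1 ± 23.6 RPM (SD, n = 5) and 50.1 ± 6.99 RPM (SD, n = 4), respectively. The change that limma fitted was -0.83 on the log2 scale with a standard error of 0.21, or 1.78-fold lower, and its adjusted p over 9495 genes was 0.0105. Of the 9 deadenylase genes tested, 1 was lower and 0 were higher, where 12.9% and 10.9% of all genes tested were. The median log2 change was -0.01 over the 9 genes and -0.07 over all 9495 genes. None of the 9 had groups that did not overlap, as 19.9% of all genes tested had.

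**Figure D1:**
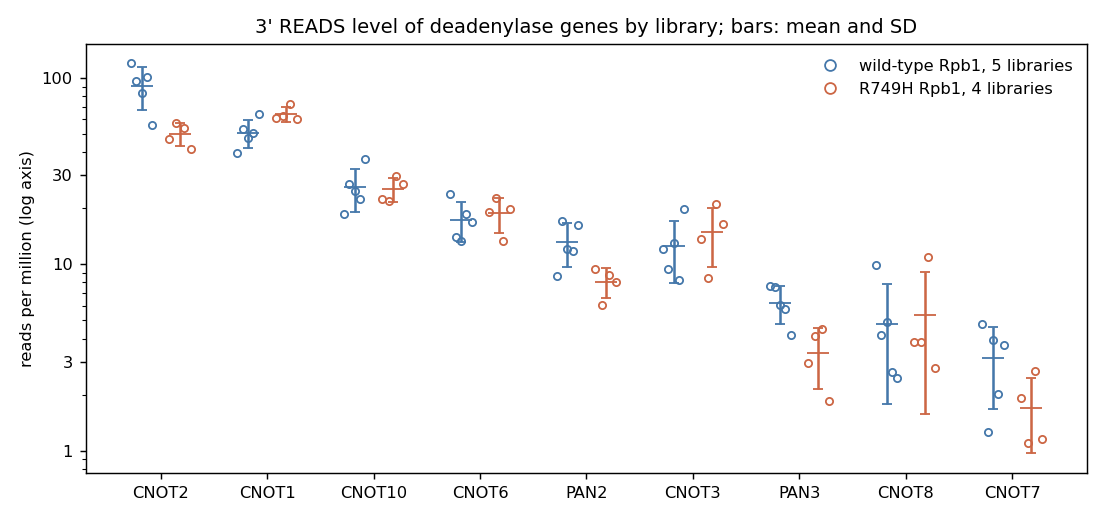
Level of the 9 deadenylase genes that passed the filter, in RPM on a log axis; each circle is a library, and bars give the mean and SD of 5 wild-type and 4 R749H libraries. CNOT2 fell from a mean of 91.1 to 50.1 RPM, while the CNOT1 groups, with means of 50.9 and 63.9 RPM, overlapped.

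CNOT2 passed the test without any single library (log2 change -0.997 to -0.72, adjusted p = 0.00132 to 0.0427 by limma), and with DESeq2 (adjusted p = 0.00112) and edgeR (adjusted p = 0.00573). The scaling between libraries moved all changes. The TMM factors were 1.04 to 1.26 in wild-type and 0.81 to 0.97 in R749H libraries, and with the authors' scaling to poly(A) reads alone the median log2 change of all genes was -0.40 in place of -0.07, with 431 genes higher and 2619 lower. Relative to the median of all genes, the change of CNOT2 was -0.76 with TMM factors and -0.77 with the authors' scaling.

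The genes around CNOT2 were also lower. Of 22 tested genes within 5 Mb of it, 7 were lower and 0 higher at an adjusted p under 0.05, and their median log2 change was -0.56. From 10 Mb upstream to 15 Mb downstream of CNOT2, the median of each 5 Mb was between -1.07 and -0.39, with 14 genes lower and 0 higher among 42. Close to CNOT2 the values were less uniform. KCNMB4, the nearest tested gene, had -0.79 (adjusted p = 0.0378 by limma), and the 5 genes within 1 Mb, with KCNMB4 among them, had a median of -0.04. The part of these surroundings in the change of CNOT2 was not tested.

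**Figure D2:**
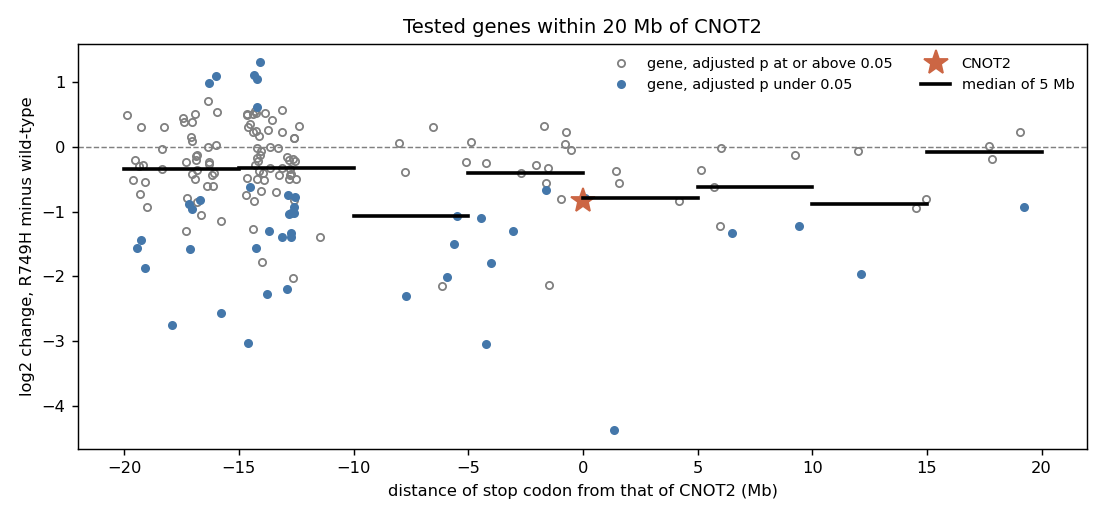
Log2 change of the tested genes within 20 Mb of CNOT2 against the distance of their stop codon from that of CNOT2 in Mb; filled circles passed an adjusted p of 0.05, the star is CNOT2 and black lines are the medians of 5 Mb without CNOT2. The medians lie below 0 throughout, and between -10 and 15 Mb every gene that passed was lower.

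CNOT1 (ENSG00000125107, chromosome 16, 58553855 to 58663789) is the scaffold on which the other subunits assemble. It had 39.3, 53.0, 47.6, 50.4 and 64.0 RPM in wild-type libraries 1 to 5 and 60.7, 62.2, 72.4 and 60.4 RPM in R749H libraries 1 to 4. Wild-type replicate 5 lay within the R749H range and the other wild-type libraries below it. The log2 change of 0.34 (standard error 0.18, 95% confidence interval -0.04 to 0.72) did not pass (adjusted p = 0.178 by limma), and with the authors' scaling it was -0.00056. Relative to the median of all genes, the change of CNOT1 was 0.408 with TMM factors and 0.404 with the authors' scaling. The tested genes within 5 Mb had a median of 0.28.

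CNOT2 and CNOT1 changed places in the order of levels. CNOT2 had more reads than CNOT1 in 4 of 5 wild-type libraries, and CNOT1 had more than CNOT2 in 4 of 4 R749H libraries. The log2 ratio of CNOT2 to CNOT1 reads, which needs no scaling between libraries, was 1.60, 0.85, 0.80, 1.0001 and -0.19 in wild-type and -0.36, -0.11, -0.43 and -0.53 in R749H libraries. This pair was chosen after the levels were seen, and no test was made of it.

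CNOT3 and CNOT10 did not pass the test. CNOT3 (ENSG00000088038, chromosome 19) forms the NOT module with CNOT2, and its levels were 12.2, 9.39, 13.0, 8.20 and 19.9 RPM in wild-type and 13.7, 8.49, 21.0 and 16.4 RPM in R749H libraries. Its log2 change was 0.24 (95% confidence interval -0.39 to 0.87, adjusted p = 0.587 by limma). CNOT10 (ENSG00000182973, chromosome 3) binds the other end of CNOT1 with CNOT11, and it ranged from 18.6 to 36.5 RPM in wild-type and from 21.9 to 29.8 RPM in R749H libraries. The log2 change of CNOT10 was -0.01 (95% confidence interval -0.47 to 0.45, adjusted p = 0.983), an interval from 0.72-fold to 1.37-fold. CNOT11 was at 64.0 RPM in wild-type and 69.3 RPM in R749H libraries on average. The tested genes within 5 Mb had a median log2 change of -0.05 around CNOT3 and -0.21 around CNOT10.

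Among the EEP nucleases of CCR4-NOT, CNOT6 (ENSG00000113300, chromosome 5) carried nearly all of the reads, which are counted only within 5 kb downstream of a stop codon. It had 24.0, 13.99, 13.4, 18.7 and 17.0 RPM in wild-type and 19.1, 22.7, 13.3 and 19.8 RPM in R749H libraries, with a log2 change of 0.11 (95% confidence interval -0.38 to 0.61, adjusted p = 0.762 by limma). CNOT6L (ENSG00000138767, chromosome 4) had 1, 2, 1, 2 and 0 reads in wild-type libraries 1 to 5 and 2, 0, 0 and 0 reads in R749H libraries 1 to 4. These counts lie at or under the 3 reads that a count of 0 allows, which correspond to 0.27 to 0.96 RPM in wild-type and 0.52 to 0.82 RPM in R749H libraries. CNOT6L was below the filter, and a difference was not detectable from these reads. Its annotated gene runs on past 5 kb after the stop codon, and 3’ ends beyond 5 kb were not counted.

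The DEDD nucleases of CCR4-NOT had the lowest mean levels of the deadenylase genes tested in wild-type cells. The annotated CNOT7 gene runs on past 5 kb after its stop codons, where ends were not counted, whereas the CNOT8 gene does not. CNOT7 (ENSG00000198791, chromosome 8), an interchangeable partner of CNOT8 in the complex, had 15, 6, 24, 22 and 21 reads in wild-type libraries (4.80, 1.25, 3.91, 2.00 and 3.67 RPM) and 11, 4, 10 and 5 reads in R749H libraries (1.91, 1.10, 2.66 and 1.15 RPM). The log2 change was -0.78, but with a standard error of 0.50 it did not pass (adjusted p = 0.274 by limma). CNOT8 (ENSG00000155508, chromosome 5) had 9.92, 4.18, 4.89, 2.64 and 2.45 RPM in wild-type and 3.83, 3.83, 10.9 and 2.77 RPM in R749H libraries. Its log2 change was 0.12 (95% confidence interval -0.84 to 1.09, adjusted p = 0.869), and -0.26 without R749H replicate 3, the highest of the 4. The median log2 change of the tested genes within 5 Mb was -0.34 around CNOT7, -0.35 around CNOT8 and 0.07 around CNOT6.

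PAN2 and PAN3 were lower on average in R749H cells, without passing the threshold. PAN2 (ENSG00000135473, chromosome 12), the nuclease, had 8.64, 17.1, 12.1, 11.8 and 16.3 RPM in wild-type and 9.39, 6.03, 8.79 and 8.07 RPM in R749H libraries. Only wild-type replicate 1 lay within the R749H range. These levels include the reads at +2865, inside CNPY2 and ENSG00000144785, which were 23 of 406 reads in wild-type and 24 of 144 reads in R749H libraries. The level without them was not tested. The log2 change of PAN2 was -0.68 with a standard error of 0.26 (adjusted p = 0.0661 by limma), with an adjusted p of 0.0464 by DESeq2, 0.0552 by edgeR and 0.0228 by limma without wild-type replicate 1. PAN3 (ENSG00000152520, chromosome 13), which holds PAN2 on its target mRNA by binding PABP, had 7.68, 7.52, 6.03, 5.74 and 4.20 RPM in wild-type and 2.96, 4.11, 4.53 and 1.84 RPM in R749H libraries, where 8 to 17 reads stood behind each value. Wild-type replicate 5 lay within the R749H range and the other 4 wild-type libraries above it. The log2 change was -0.92 (standard error 0.34, adjusted p = 0.0606), and it passed without wild-type replicate 5 (adjusted p = 0.0433) and without R749H replicate 3 (adjusted p = 0.0355, limma). With the authors' scaling alone both genes passed (log2 change -1.02 and -1.25, adjusted p = 0.00721 and 0.0165), and relative to the median of all genes the changes were -0.61 and -0.85 with either scaling. The tested genes within 5 Mb had a median log2 change of -0.32 around PAN2 (110 genes) and 0.19 around PAN3 (27 genes). The stop codon of PAN2 lies at -14.04 Mb from that of CNOT2. Between -15 and -10 Mb from CNOT2, 71 tested genes had a median of -0.33, and 15 passed as lower and 4 as higher. The part of these surroundings in the change of PAN2 was not tested.

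**Figure D3:**
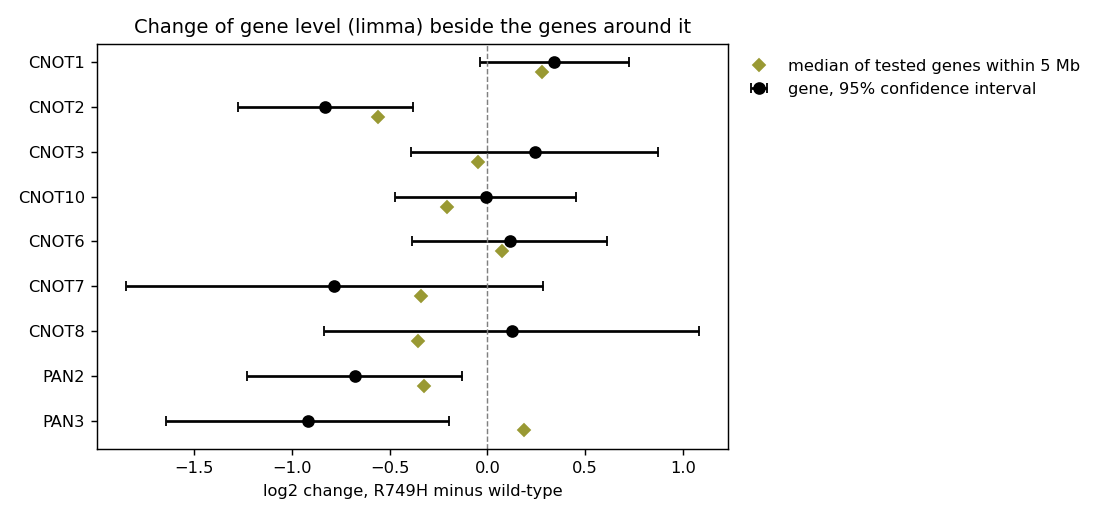
Log2 change of each deadenylase gene (R749H minus wild-type, limma) with its 95% confidence interval, and the median change of the tested genes within 5 Mb as diamonds. The intervals of CNOT2, PAN2 and PAN3 lie below 0 before adjustment for 9495 genes, and PAN3 is the gene whose change lies furthest from that of its surroundings (-0.92 beside 0.19).

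Each gene's level in the wild-type cells gave the order CNOT2, CNOT1, CNOT10, CNOT6, PAN2, CNOT3, PAN3, CNOT8, CNOT7 and CNOT6L. Ends past 5 kb after the stop codon, where the annotated CNOT6L and CNOT7 genes continue, are not in these levels. The ranges of neighbours in this order overlapped between libraries, except for CNOT1 over CNOT10, CNOT3 over PAN3 and CNOT7 over CNOT6L. In R749H cells the order began with CNOT1 and CNOT2, whose ranges did not overlap, followed by CNOT10, CNOT6, CNOT3, PAN2, CNOT8, PAN3, CNOT7 and CNOT6L. PAN2 and CNOT3 could not be ordered in wild-type cells, where PAN2 was higher in 2 of 5 libraries, and CNOT3 was higher in 4 of 4 R749H libraries.

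The balance between alternative subunits, and between the adaptor PAN3 and the nuclease PAN2, was compared as the log2 ratio of their reads within each library. CNOT7 was below CNOT8 by 0.57 on average in wild-type cells (log2 ratio -0.57 ± 0.84, SD, n = 5) and further below in R749H cells (-1.46 ± 0.47, SD, n = 4). The difference of -0.90 did not pass (exact permutation test, two-sided, p = 0.0952, adjusted p = 0.286 over 3 ratios). PAN3 to PAN2 was -1.06 ± 0.63 (SD, n = 5) and -1.29 ± 0.68 (SD, n = 4), a difference that did not pass (exact permutation test, p = 0.587, adjusted p = 0.587). The ratio of CNOT6 to CNOT6L was 6.04 ± 1.02 (SD, n = 5) and 6.93 ± 1.04 (SD, n = 4; exact permutation test, p = 0.254, adjusted p = 0.381), and it rests on the 0.5 reads that were added to CNOT6L counts of 0 to 2. The difference of 0.88 became 1.96 with 0.1 reads added and 0.25 with 2 reads added. Ends of CNOT6L and CNOT7 past 5 kb after the stop codon were not counted, so their reads in these ratios may be incomplete.

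The genes differed in their poly(A) profiles, from a single dominant 3’ end to ends spread over several sites. CNOT2 and CNOT10 ended at a single site, which held 96.4% and 96.2% of their reads over all libraries, and within it a single nucleotide dominated. In CNOT2 the isoform at +1077 (chromosome 12, 70748772) held 82.2% ± 1.82 (SD, n = 5) of the reads in wild-type and 85.3% ± 3.82 (SD, n = 4) in R749H cells. CNOT10 had 84.8% ± 3.24 and 85.4% ± 4.33 at +101 (n = 5 and 4). PAN3 ended at 2 nucleotides of a single site, +2808 and +2810, with 42.4% ± 6.71 and 56.5% ± 6.69 of its reads in wild-type (n = 5) and 45.8% ± 8.67 and 54.2% ± 8.67 in R749H cells (n = 4).

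**Figure D4:**
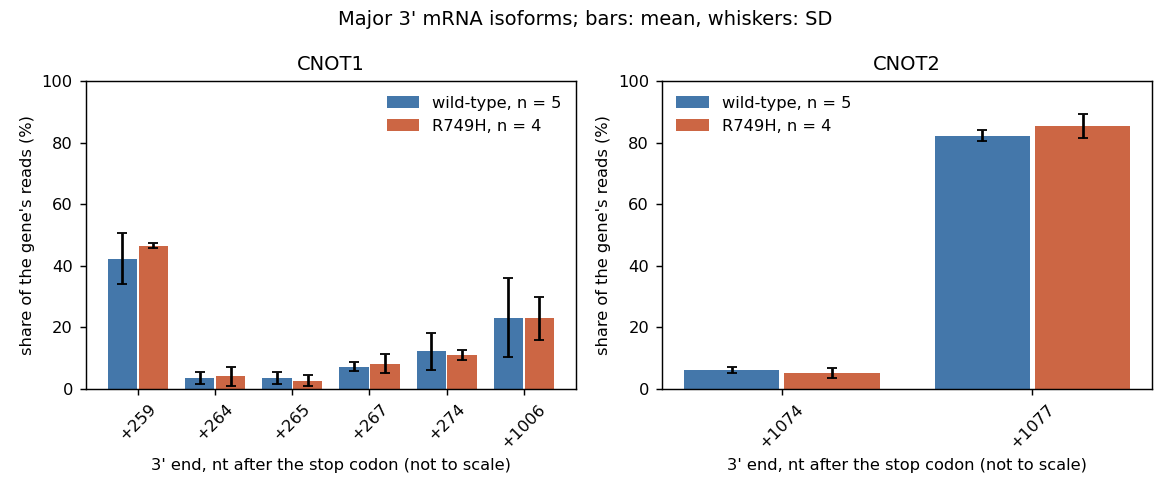
Share of the gene's reads at each major 3’ mRNA isoform of CNOT1 and CNOT2, labelled by nt after the stop codon; bars are means and whiskers SDs of 5 wild-type and 4 R749H libraries. CNOT2 ends mostly at +1077 (82.2% and 85.3%), whereas CNOT1 spreads over +259 to +274 and +1006.

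CNOT1 ended at a site at +259 and a site at +1006. The upstream site, without AATAAA or ATTAAA, held 73.6% of the reads over all libraries, and the downstream site, with ATTAAA, held 22.1%. The share of the upstream site was 46.3%, 67.7%, 83.9%, 73.8% and 81.7% in wild-type libraries 1 to 5 and 73.9%, 76.2%, 63.6% and 76.3% in R749H libraries 1 to 4. Wild-type replicate 1, with 123 CNOT1 reads, had both the lowest share upstream and the highest downstream (46.3% at each), and R749H replicate 3 had the next lowest share upstream (63.6%) and the next highest downstream (33.1%). The other 3 R749H libraries lay within the range of wild-type replicates 2 to 5 at both sites. The log2 odds of the upstream site changed by 0.04 (95% confidence interval -0.87 to 0.95, adjusted p = 0.971 by limma). None of the 14 sites of these genes that were tested passed, where 0.326% of all 10750 sites tested did. Upstream, the ends spread over 5 major isoforms from +259 (42.3% ± 8.23 of CNOT1 reads in wild-type and 46.5% ± 0.74 in R749H cells, SD, n = 5 and 4) to +274 (12.1% ± 6.10 and 10.9% ± 1.52).

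CNOT6 had the most divided profile, with 6 sites from +1995 to +4204 and no isoform above 19.5% of its reads pooled over all libraries. The sites at +2619 and +3767, both with AATAAA, held 35.7% and 28.3% of the reads over all libraries. At +2619 the share was 35.2% ± 4.33 (SD, n = 5) in wild-type and 36.9% ± 8.52 (SD, n = 4) in R749H cells. The site at +4152 was the only tested site of these genes at which the libraries of the cell lines did not overlap, as 6.02% of all sites tested. Its share was 25.3%, 25.4%, 26.8%, 13.7% and 13.4% in wild-type libraries 1 to 5 and 12.7%, 9.64%, 12% and 12.8% in R749H libraries 1 to 4, on 6 to 28 reads. Wild-type replicates 4 and 5 lay close above the R749H libraries, and the change in log2 odds of -0.90 (standard error 0.45) did not pass (unadjusted p = 0.0644, adjusted p = 0.376 by limma). At +3767 the log2 odds changed by -0.50 (adjusted p = 0.608 by limma), and at +2301, with 6.67% of the reads over all libraries, by 1.43 (adjusted p = 0.497). The site at +4204, past the annotated end of CNOT6, held 7.11% ± 3.24 (SD, n = 5) and 13.8% ± 11.6 (SD, n = 4), and R749H replicate 3 had the highest share, 30% of 50 reads.

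PAN2 reads at +2865, the site inside CNPY2 and ENSG00000144785, were a larger share in R749H cells without passing the test. The share was 0%, 11.0%, 1.35%, 8.46% and 2.15% in wild-type libraries 1 to 5 and 7.41%, 40.9%, 12.1% and 20.0% in R749H libraries 1 to 4. R749H replicate 1 lay within the wild-type range and the other 3 above it. These shares rest on 0 to 11 reads of the site in each library. The 40.9% in R749H replicate 2 is 9 of 22 reads (95% exact binomial confidence interval 20.7% to 63.6%), and for the 0 of 27 reads in wild-type replicate 1 the upper limit of the same interval is 12.8%. Such intervals cover counting error only. The log2 odds rose by 2.63 on average (standard error 0.89, unadjusted p = 0.00932, adjusted p = 0.196 by limma and 0.254 by edgeR), where 14.5% of all sites tested had an unadjusted p under 0.05. At the +672 site the change was -1.85 (standard error 0.76, adjusted p = 0.277), and its share was 92.9% ± 4.46 (SD, n = 5) in wild-type and 76.6% ± 17.3 (SD, n = 4) in R749H cells. A read at +2865 cannot be told apart from an end of transcripts of those genes by its position.

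**Figure D5:**
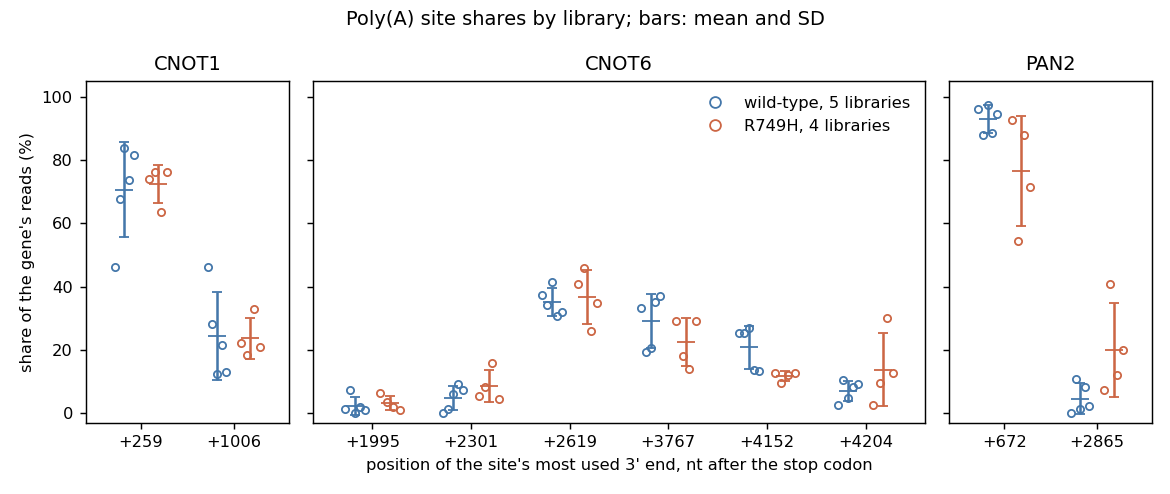
Share of the gene's reads at each poly(A) site of CNOT1, CNOT6 and PAN2, labelled by nt after the stop codon; circles are libraries and bars the mean and SD of 5 wild-type and 4 R749H libraries. The groups overlap at every site except +4152 of CNOT6, where the R749H libraries lie between 9.64% and 12.8% and the wild-type libraries between 13.4% and 26.8%.

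CNOT3 and CNOT8 had a main site and a minor one. CNOT3 held 89.5% ± 7.32 (SD, n = 5) of its reads at +273 in wild-type and 92.8% ± 4.49 (SD, n = 4) in R749H cells, and the rest mostly at +248, 25 nt upstream (log2 odds change of the +273 site 0.21, adjusted p = 0.934 by limma). CNOT8 held 91.4% ± 5.47 (SD, n = 5) and 97.1% ± 3.54 (SD, n = 4) at +1352 (log2 odds change 1.37, adjusted p = 0.498). CNOT7 ends lay at 5 sites after 2 stop codons of its CCDS entries, from +61 to +4887, with 8 to 47 reads a site over all libraries. The 118 reads of CNOT7 average under the minimum of 20 reads of the gene per library, and no test of its sites was made. Its most used site, at +1489 in the 3’ UTR, held 39.8% of 118 reads.

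A shift of the whole profile was measured as the log2 odds of reads downstream of the gene's median position. None of the 6 genes tested passed, where 0.0691% of 7231 genes did. CNOT10 had the largest change, -1.51 (95% confidence interval -3.28 to 0.26, unadjusted p = 0.0887, adjusted p = 0.553 by limma, where 10.3% of genes tested had an unadjusted p under 0.05), but only 6.27% ± 1.55 (SD, n = 5) and 3.56% ± 3.46 (SD, n = 4) of its reads lay downstream of +101, and without R749H replicate 3, which had none there, the change was -0.55. CNOT1, with 51.5% ± 9.93 (SD, n = 5) of its reads downstream of +264 in wild-type and 46.3% ± 4.20 (SD, n = 4) in R749H cells, changed by -0.31 (95% confidence interval -0.88 to 0.26, adjusted p = 0.699). CNOT2 (-0.20), CNOT6 (-0.28), CNOT3 (0.02) and PAN2 (0.40) had intervals that also spanned 0. The PAN2 value was 0.016 without R749H replicate 4 and 2.02 with the division at the midpoint, without passing in either (adjusted p = 0.991 and 0.298 by limma). CNOT6L, CNOT7, CNOT8 and PAN3 had too few reads, in all or downstream, to be tested. The lower limits of the 95% confidence intervals were -1.01 in CNOT2 and -0.97 in CNOT6.

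Within sites, the mean position of the 3’ ends was compared, since the study asks about shifts of a few nt. None of the 10 sites of these genes that were tested passed, where 0.035% of 8568 sites did. At the CNOT2 site the mean position differed by -0.01 nt (95% confidence interval -0.12 to 0.10 nt, adjusted p = 0.979 by limma), and at the +259 site of CNOT1 by -0.42 nt (-1.23 to 0.40 nt, adjusted p = 0.851). The difference was -0.11 nt in CNOT10 (-0.35 to 0.13 nt) and -0.05 nt in PAN3 (-0.39 to 0.29 nt). It was 0.03 nt at CNOT1 +1006, 0.11 nt at CNOT3 +273, -0.15 nt at CNOT6 +2619, -0.22 nt at CNOT6 +3767 and -0.67 nt at PAN2 +672, each with an interval that spanned 0. At the +1352 site of CNOT8, the mean position relative to the most used end was -2.304 ± 1.09 nt (SD, n = 5) in wild-type and -4.15 ± 1.45 nt (SD, n = 4) in R749H cells, and the groups overlapped. The difference of -1.85 nt did not pass (unadjusted p = 0.0658, adjusted p = 0.825 by limma), where 5.67% of all sites tested had an unadjusted p under 0.05.

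Other genes of cytoplasmic mRNA decay were taken from 6 lists of 53 genes, of which 38 passed the filter on low reads. With limma, 4 were higher and 7 lower in R749H cells (11 of 38, where 23.9% of all genes tested passed), and the median log2 change was -0.12. Of the 4 other CCR4-NOT subunits, 3 were tested (CNOT9, CNOT11 and TNKS1BP1) and none passed, with a median of 0.13. Among 17 proteins that recruit deadenylases, 12 were tested, 2 were higher and 3 lower. TNRC6C, a partner of Argonaute proteins that binds CCR4-NOT, rose from 6.68 ± 1.42 (SD, n = 5) to 14.9 ± 6.13 RPM (SD, n = 4; log2 change 1.08, adjusted p = 0.0118). AGO2, the Argonaute that can cleave its targets, rose from 2.94 to 6.74 RPM (log2 change 1.20, adjusted p = 0.0361), and AGO4 fell from 7.10 to 2.86 RPM (-1.35, adjusted p = 0.0153). NANOS3, of a family of germ cell repressors, fell from 9.72 to 3.95 RPM (-1.44, adjusted p = 0.00713). The median log2 change of the tested genes within 5 Mb was 0.11 around TNRC6C, 0.15 around AGO2, -0.48 around AGO4 and 0.04 around NANOS3.

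Of the 6 other deadenylases, 2 were tested, and ANGEL2 fell from 14.1 ± 1.37 (SD, n = 5) to 8.003 ± 2.26 RPM (SD, n = 4; log2 change -0.86, adjusted p = 0.0205 by limma). PARN, the nuclease that trims many small RNAs, was under the filter. Of 6 poly(A)-binding proteins and their regulators, 5 were tested, and PABPC4 fell from 359.9 to 231 RPM (-0.68, adjusted p = 0.0213). Among 18 genes of decapping and 5’ to 3’ decay, 15 were tested, with 2 higher and 2 lower. EDC4, the scaffold of the decapping complex, rose from 172 ± 22.3 (SD, n = 5) to 246 ± 23.9 RPM (SD, n = 4; log2 change 0.52, adjusted p = 0.0249), and LSM4, a subunit of the LSM ring, rose from 160.2 to 239 RPM (0.57, adjusted p = 0.0373). LSM5, of the same ring, fell from 35.1 to 22.5 RPM (-0.65, adjusted p = 0.0391), and LSM14A, of P-bodies, from 38.6 to 21.5 RPM (-0.78, adjusted p = 0.0271). The tested genes within 5 Mb had a median log2 change of -0.04 around ANGEL2, -0.37 around PABPC4 and 0.19 around EDC4. It was -0.06 around LSM4, -0.07 around LSM5 and -0.13 around LSM14A. The part of the surroundings in the changes of the decay genes was not tested. The terminal uridylyl transferase TUT4 did not pass, and TUT7 was under the filter. In all, 8 of the 38 genes had groups that did not overlap, beside 19.9% of all genes tested.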

How the data were processed

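Poly(A) RNA of HEK293 cells with α-amanitin resistant wild-type (5 libraries) or R749H Rpb1 (4 libraries), biological replicates according to the paper's methods, was measured by 3’ READS. The authors removed the random and leading T bases of each read, mapped the reads to hg19 with bowtie, retained reads whose terminal As are not in the genome, and gave each 3’ end to a CCDS stop codon that lies within 5 kb before it. The processing notes of the submitters name Bowtie2 (2.3.2). The deposited signal values are reads per isoform, which the authors scaled to 7 M per library, and to 25 M where a cell line was pooled. Dividing by the smallest step gave whole reads for 100% of values (tolerance 0.1 read), and no molecular identifiers are named, so counting errors cover sampling only. The 4 eNETseq libraries are not analysed here.

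Sites joined isoforms that exceeded 5% of the maximal isoform in either cell line (at least 5 reads where that had fewer than 100), were no more than 24 nt apart and were extended by 12 nt. Limma (3.58.1, two-sided, Benjamini-Hochberg, 0.05) was applied across all features, because the deposited values are scaled and are not counts. It tested levels (log2 RPM, TMM factors, prior count 0.5, filterByExpr), mean positions, and log2 odds of sites and of reads downstream of the median. The odds used a prior of 0.5 reads, scaled to library depth. For the odds, the gene had to average 20 reads or more, and each side of the odds at least 1 read. A tested site could thus hold far fewer than 20 reads per library, as CNOT8 +340 did with 9 reads over all libraries. Ratios were tested by exact permutation over all splits (smallest p 0.0159). edgeR (4.0.16) and DESeq2 (1.42.0) on the recovered reads were alternatives, beside other prior counts, read minimums, joins, scalings and each library left out. The fits were tested on simulated data. All 10 genes are named with their tests or as not tested, the other decay genes where their level passed (1 such result is not reported here), and the tested genes within 5 Mb are given as medians. The genes and the lists were chosen with earlier results of these data known. The replicate numbers of the labels do not pair the lines (see the closing section). Sequences are from GRCh37, whose positions fit the files, since 15535 of 15558 CCDS entries end in a stop codon there, and annotation is GENCODE v44lift37.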

Additional observations from a re-analysis of the deposited data

Results flagged for a closer look

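A library lay far from the others of its group in 7 of the 84 groups of member values that were examined, where chance marks about 1 in 20. R749H replicate 3, the library with few single-read isoforms, was apart for 2 levels. It had 72.4 RPM of CNOT1, against 60.4 to 62.2 RPM in the other R749H libraries, and 10.9 RPM of CNOT8, against 2.77 to 3.83 RPM. Wild-type replicate 2 had 7.46% of its CNOT6 reads at +1995, against 0% to 1.95% in the other wild-type libraries. R749H replicate 2 had 7.14% of its CNOT8 reads at +340, where the other R749H libraries had 0. The mean position at the CNOT1 site at +1006 was -0.11 nt from the most used end in wild-type replicate 3, against 0.17 to 0.25 nt. At the PAN2 site at +672 it was -5 nt in R749H replicate 2, against -0.66 to 0.07 nt. In wild-type replicate 5, 25.8% of the PAN2 reads lay downstream of +672, against 37.04% to 40.8%.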

How the results depend on the processing

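CNOT2 kept its direction and an adjusted p under 0.05 in all 18 alternatives adjusted over genes (log2 change -1.17 to -0.72), and its exact permutation p was 0.0317. PAN2 and PAN3 also passed unadjusted exact permutation tests (p = 0.0476 and 0.0317), and the cause of their changing calls was not tested. No other gene, and no site, shift, position or ratio of these genes, passed in any alternative run. Of 649 values of single genes or sites under an alternative, 50 changed sign, all of them in results that had not passed, 8 (of PAN2 and PAN3) gained the threshold and 591 did neither. The exact permutation tests of PAN2 and PAN3 are among these 8 and were judged by unadjusted p, the others by adjusted p. 3’ ends listed under more than 1 gene name could not be left out, since there were 0. At these depths PAN3, CNOT7, CNOT8 and minor sites are limited by few reads.

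Over all genes, with 1 library left out, 1522 to 2664 genes passed for level, 6 to 137 sites (35 with all libraries; 137 without R749H replicate 1, 6 without R749H replicate 2), 2 to 21 genes for shift (5 with all) and 2 to 3 positions. A prior count of 0.1 gave 12 sites and 3 shifts, a prior count of 2 gave 150 sites and 20 shifts, edgeR 63 sites and 8 shifts, a mean of at least 50 reads 8 shifts, and division at the midpoint 26 shifts. The PAN3 to PAN2 ratio was -0.49 to 0.022 with 1 library left out, and positive without R749H replicate 4.

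Same-numbered libraries of the lines did not deviate together (r = -0.07, 0.05, 0.02 and -0.05 across genes), so they share only a number. With a replicate block for replicates 1 to 4, which drops wild-type replicate 5, 2095 genes passed for level, 32 sites, 21 shifts and 2 positions, CNOT2 changed by -0.997 (adjusted p = 0.00282 by limma), and the sign changed for CNOT10 (0.12) and CNOT8 (-0.071) levels, the CNOT1 +1006 site (-0.16) and the CNOT3 shift (-0.011). Leaving out wild-type replicate 5 without a block gave the same values for these genes and sites, and 2215 genes, 24 sites, 6 shifts and 2 positions. The paired ratios were -0.61, 1.28 and -0.45 (CNOT7 to CNOT8, CNOT6 to CNOT6L, PAN3 to PAN2).

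Leaving out 1 library also changed signs. The levels ranged from -0.12 to 0.12 in CNOT10 and from -0.26 to 0.43 in CNOT8. The odds of sites ranged from -0.35 to 0.29 at CNOT1 +259, from -0.19 to 0.46 at CNOT1 +1006, from -1.54 to 0.34 at CNOT3 +248, from -0.46 to 1.14 at CNOT3 +273 and from -0.087 to 0.33 at CNOT6 +2619. The shift of CNOT3 ranged from -0.12 to 0.27, and positions from -0.082 to 0.081 nt at CNOT1 +1006, -0.023 to 0.012 nt at CNOT2, -0.45 to 0.055 nt at CNOT6 +2619, -0.42 to 0.11 nt at CNOT6 +3767 and -1.19 to 0.50 nt at PAN2 +672. With the authors' scaling, where the median of all genes was -0.40, CNOT1 was -0.00056, CNOT3 -0.10, CNOT6 -0.23 and CNOT8 -0.21. CNOT10 was 0.0036 with RLE factors and 0.0076 without a filter, and CNOT3 +273 was -0.14 with a prior count of 0.1. Joining at 4 nt gave -0.11 at CNOT6 +1995, -0.89 at CNOT8 +1352, and positions of 0.045 nt at CNOT2, 0.23 nt at CNOT6 +2619 and 0.10 nt at CNOT6 +3767. Joining at 40 nt gave 0.0087 nt at CNOT2, and division at the midpoint gave a CNOT2 shift of 0.48.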
